A study of Homo sapiens with 36 samples.

Results

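The late phase of LMO2 loss was read from 16 of the 36 RNA-seq libraries of the series, those taken on days 4 and 1 in the set of K562 lines with an LMO2 degron. K562 is a human line with erythroid features that came from a chronic myeloid leukemia in blast crisis. In degron cells LMO2 protein carries a tag that dTAGv1, a bifunctional degrader, links to a ubiquitin ligase, so that the protein is broken down. The degron lines were LMO2 degron cells labelled rep 2 and rep 1, called here degron line 2 and degron line 1, and the sources used here do not say whether each is a single clone. They were set against a parental K562 line and a line labelled LMO2 control, together called the control lines. The sources used here do not say what the LMO2 control line carries. All 16 libraries, those of the control lines included, came from cells in dTAGv1, with a concentration of 750 uM in the labels, where uM may stand in error for a smaller unit. Each line had 2 libraries per day, labelled bio rep 1 and bio rep 2, made from polyA RNA. The libraries were chosen by line and day alone, no expression value entered the choice, and no day 0 library entered the changes given here.

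LMO2 is an adaptor that does not itself touch DNA. In red cell precursors it holds a complex in which TAL1 with an E protein contacts E-box letters, GATA1 contacts GATA letters, and LDB1 with its SSBP partners bridges such complexes. The complex is known for driving erythroid genes such as globins, blood group genes and KLF1, itself a transcription factor of red cell genes.

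The quantity followed throughout is the late degron-specific change. For each line and bio rep number the value on day 4 minus that on day 1 was taken on the log2(FPKM + 1) scale, where FPKM is fragments per length of gene and size of library. The mean over the 4 pairs of the degron lines minus the mean over the 4 pairs of the control lines is the late degron-specific change, so a positive value means a rise in degron cells beyond that in control lines. A gene was called, and is said to have risen or fallen, when its Benjamini-Hochberg adjusted p from limma was under 0.05 over the 14996 genes tested. The ± beside a change gives its standard error, from 4 degron and 4 control pairs. Each line had its own day effect in the fit. The ± and the p-values therefore measure the spread between the 2 bio reps of a line, and not the spread between lines. Nothing in the labels says that bio reps are separate cultures, so this spread between libraries may be technical.

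Promoters of 5 genes are shown first because they hold the letter patterns that the gene groups below are compared on. They are the 250 bases before the RefSeq gene start (GRCh38.p14), 5′ to 3′ on the gene's own strand. KLF1 (chr19:12887202-12887451, minus strand) and ALAS1 (chr3:52197833-52198082, plus strand) changed most among the erythroid regulators and the heme enzymes, and capitals mark GATA (or TATC, the same letters on the other strand) and the E-box CANNTG. In ALAS1 a GATA and a TATC overlap. In CENPA (chr2:26785806-26786055, plus strand), of the mitotic list, capitals mark TTTGAA, called CHR, and CCAAT (or ATTGG). In MCM7 (chr7:100101398-100101647, minus strand), of the replication list, capitals mark TTCCCGC (or GCGGGAA), an E2F-type site. In LAMP1 (chr13:113296989-113297238, plus strand), of the lysosome list, capitals mark TCACGTG (or CACGTGA), a CLEAR-type box, which also contains an E-box. Each promoter also holds patterns that are not marked, or can do so. CENPA also has TTCCCGC, and MCM7 also has TCACGTG and ATTGG, all in lower case here. All these letters are descriptions of the sequence and not measured binding.
KLF1: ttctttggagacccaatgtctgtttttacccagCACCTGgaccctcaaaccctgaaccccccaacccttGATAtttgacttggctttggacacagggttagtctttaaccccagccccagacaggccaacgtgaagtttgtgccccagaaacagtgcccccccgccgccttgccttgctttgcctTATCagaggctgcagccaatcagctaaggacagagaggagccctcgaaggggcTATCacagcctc
ALAS1: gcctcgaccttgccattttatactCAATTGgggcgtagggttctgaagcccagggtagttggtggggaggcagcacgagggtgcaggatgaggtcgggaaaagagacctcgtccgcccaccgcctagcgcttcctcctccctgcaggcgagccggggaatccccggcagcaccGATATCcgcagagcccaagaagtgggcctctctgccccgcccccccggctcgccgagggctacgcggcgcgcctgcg
CENPA: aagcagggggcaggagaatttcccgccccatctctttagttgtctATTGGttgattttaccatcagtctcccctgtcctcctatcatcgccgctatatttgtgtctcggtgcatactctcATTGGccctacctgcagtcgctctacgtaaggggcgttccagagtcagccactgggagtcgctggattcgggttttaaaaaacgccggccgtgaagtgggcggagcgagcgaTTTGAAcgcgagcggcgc
MCM7: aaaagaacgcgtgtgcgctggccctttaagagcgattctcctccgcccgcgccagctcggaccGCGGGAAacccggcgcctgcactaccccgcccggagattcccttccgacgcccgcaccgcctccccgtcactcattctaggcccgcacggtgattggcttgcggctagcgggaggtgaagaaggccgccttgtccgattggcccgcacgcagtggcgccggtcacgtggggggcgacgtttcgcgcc
LAMP1: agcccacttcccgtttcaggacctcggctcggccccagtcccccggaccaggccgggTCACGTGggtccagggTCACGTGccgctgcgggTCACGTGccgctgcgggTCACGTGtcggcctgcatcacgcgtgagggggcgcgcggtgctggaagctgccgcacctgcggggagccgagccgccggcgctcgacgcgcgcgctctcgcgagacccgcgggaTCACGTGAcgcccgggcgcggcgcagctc

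Across all genes, the degron lines changed widely between days 1 and 4 while the control lines gave no call. Among the 14996 genes there were 2022 calls (13.5%), 969 of a rise (6.46%) and 1053 of a fall (7.02%). The counts of called list members given below are to be set against these shares. The lists were chosen with earlier results of these data known, which can itself favour a share above that of all genes. The size was at least 2-fold in 103 rises and 181 falls. Genes at 5 FPKM or more on average made up 546 of those that rose and 815 of those that fell. The median late degron-specific change of all genes was 0.03. The degron lines alone gave 6200 calls (41.3%), 3844 higher (25.6%) and 2356 lower (15.7%). In the control lines alone 0 were called by limma, with 1739 at an unadjusted p under 0.05 and a smallest adjusted p of 0.172.

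The called genes were mostly ones whose gap to the control lines widened. Those that rose stood above the control lines by a median of 1.06 on day 4 and 0.42 on day 1, and those that fell stood at -0.88 on day 4 and -0.21 on day 1. On day 1, 132 of the genes that rose stood below the control lines, and 351 of those that fell stood above them. A gap on either day, here and for the genes below, may include differences between the lines from before dTAGv1. No day 0 library entered it, so a gap on day 1 is not shown to be an early response. In 1948 of the 2022 called genes no degron pair overlapped a control pair, against 25.2% of all genes tested. Calling genes on these same pairs favours such a split, so it is no separate support for the calls. Pairing mattered to the count. It was 771 with no replicate block, 762 of them among the 2022. Leaving out 1 pair of libraries gave 522 without parental replicate 1, 586 without parental replicate 2, 838 without degron line 2 replicate 2, 889 without degron line 1 replicate 1, 1026 without LMO2 control replicate 2, 1043 without degron line 1 replicate 2, 1190 without degron line 2 replicate 1 and 1369 without LMO2 control replicate 1.

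**Figure D1:**
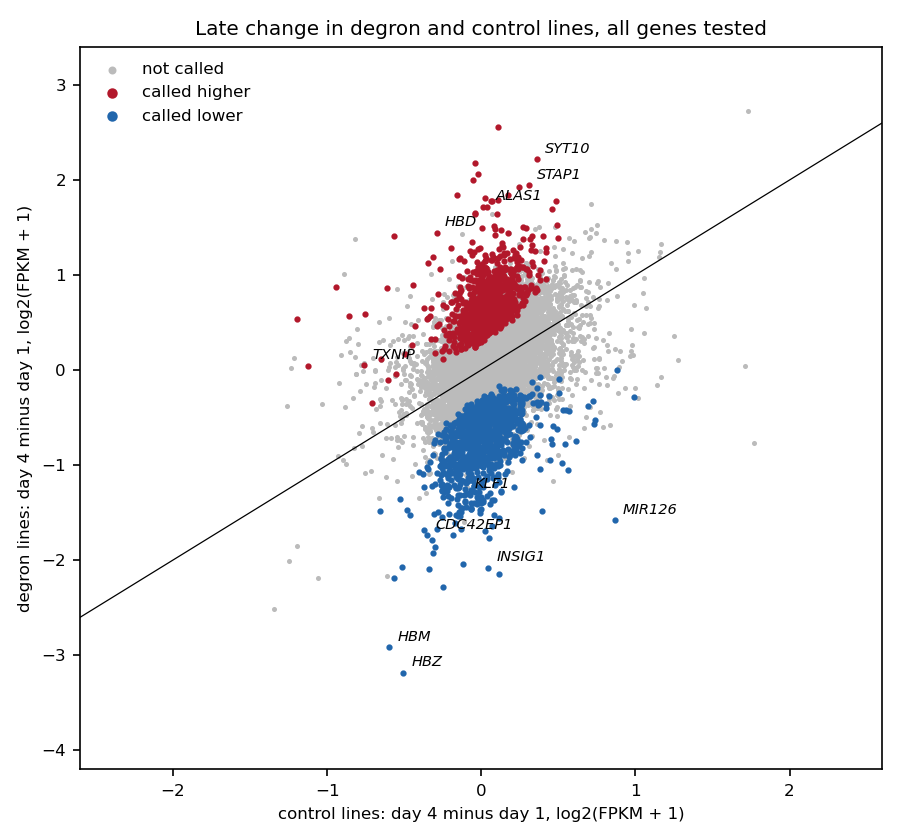
Change from day 1 to day 4 in degron lines (vertical axis) against that in control lines (horizontal axis), both as day 4 minus day 1 on the log2(FPKM + 1) scale, 1 point per gene tested, with the line of equal change. The 969 genes called higher (red) lie above the line and the 1053 called lower (blue) below it, with HBZ lowest in the degron lines.

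The 2 degron lines were then set against each other. Degron line 2 changed more than degron line 1 in 663 of the 969 genes that rose and in 864 of the 1053 that fell. The difference between the lines passed the test for 0 genes in limma (546 at an unadjusted p under 0.05, smallest adjusted p 0.826), so a difference between them for a single gene is not shown here. The sign was the same in both bio reps for all 2022 called genes, and in 2019 the 4 degron pairs lay on 1 side of the control mean, which calling them on these libraries favours. Library depth recovered from the steps in the FPKM was 17.9 to 26.3 M reads and did not separate degron from control libraries. In RNA of whole cultures, fewer cells of a kind and less RNA per cell cannot be told apart.

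LMO2 itself is measured here as RNA, which does not test loss of the protein. Its FPKM was 234 and 265 on day 4, against 147 and 230 on day 1, in degron line 2. It was 155 and 271 on day 4, against 128 and 244 on day 1, in degron line 1. The LMO2 control line had 286 and 443 on day 4, against 212 and 328 on day 1, and parental cells had 37.8 and 44.2 on day 4, against 46.6 and 31.2 on day 1. The parental line was far below the other lines on both days, and degron and control pairs overlapped in their change. LMO2 had a late degron-specific change of 0.06 ± 0.19 (adjusted p = 0.867), and it was -0.14 without parental replicate 1.

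LDB1 was at 39.1 and 32.0 FPKM on day 4, against 36.0 and 37.4 on day 1, in degron line 2, and at 46.2 and 40.8 on day 4, against 52.5 and 51.9 on day 1, in degron line 1. The control lines held 81.0 to 96.8 FPKM on day 4 and 68.0 to 107 on day 1. LDB1 thus stood below the control lines on both days without overlap, with gaps of -1.14 on day 4 and -0.998 on day 1, and its late change of -0.14 ± 0.13 did not pass the test (adjusted p = 0.498). TAL1 did not pass it either (0.09 ± 0.10, adjusted p = 0.595), nor did GATA1 (-0.42 ± 0.12, adjusted p = 0.0723). Of 15 genes in a list of the complex and its partners, 2 rose and 0 fell, against 13.5% of all genes called in either direction, with a median of 0.06. The 2 were TCF12, an E protein that pairs with TAL1 (0.58 ± 0.10, adjusted p = 0.0133), and SSBP2, a partner of LDB1 (0.44 ± 0.11, adjusted p = 0.0387). TCF12 was not called without either parental replicate, and SSBP2 was not called in any of the 8 fits that left out a pair. Both lost the call with no replicate block (adjusted p = 0.0752 for TCF12 and 0.118 for SSBP2).

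Of 13 erythroid transcription factors tested, 2 fell and 0 rose, near the 13.5% of all genes called in either direction. The median change was 0.09. KLF1 was the first of the 2 that fell. It was at 5.11 and 4.30 FPKM on day 4, against 16.1 and 14.7 on day 1, in degron line 2, and at 22.5 and 21.1 on day 4, against 48.5 and 45.9 on day 1, in degron line 1. Control lines held 91.3 to 125 FPKM on day 4 and 83.9 to 139 on day 1. Every degron library was below every control library, degron line 2 was below degron line 1 on each day, and day 4 was below day 1 in each degron line. The late degron-specific change of KLF1 was -1.21 ± 0.09 (adjusted p = 0.00283), on top of a gap of -2.11 already present on day 1, and the call held in all 8 fits that left out a pair. MYB, a factor of progenitor cells, also fell (-0.46 ± 0.12, adjusted p = 0.0447), where degron lines changed by -0.08 and control lines by 0.38. That call was lost in 7 of the 8 fits and with no replicate block (adjusted p = 0.436). NFE2, GFI1B and HEMGN, other erythroid regulators, had late changes of -0.36, -0.28 and -0.85 that were not called, while their day 4 gaps to the control lines were -1.497, -1.65 and -5.37.

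**Figure D2:**
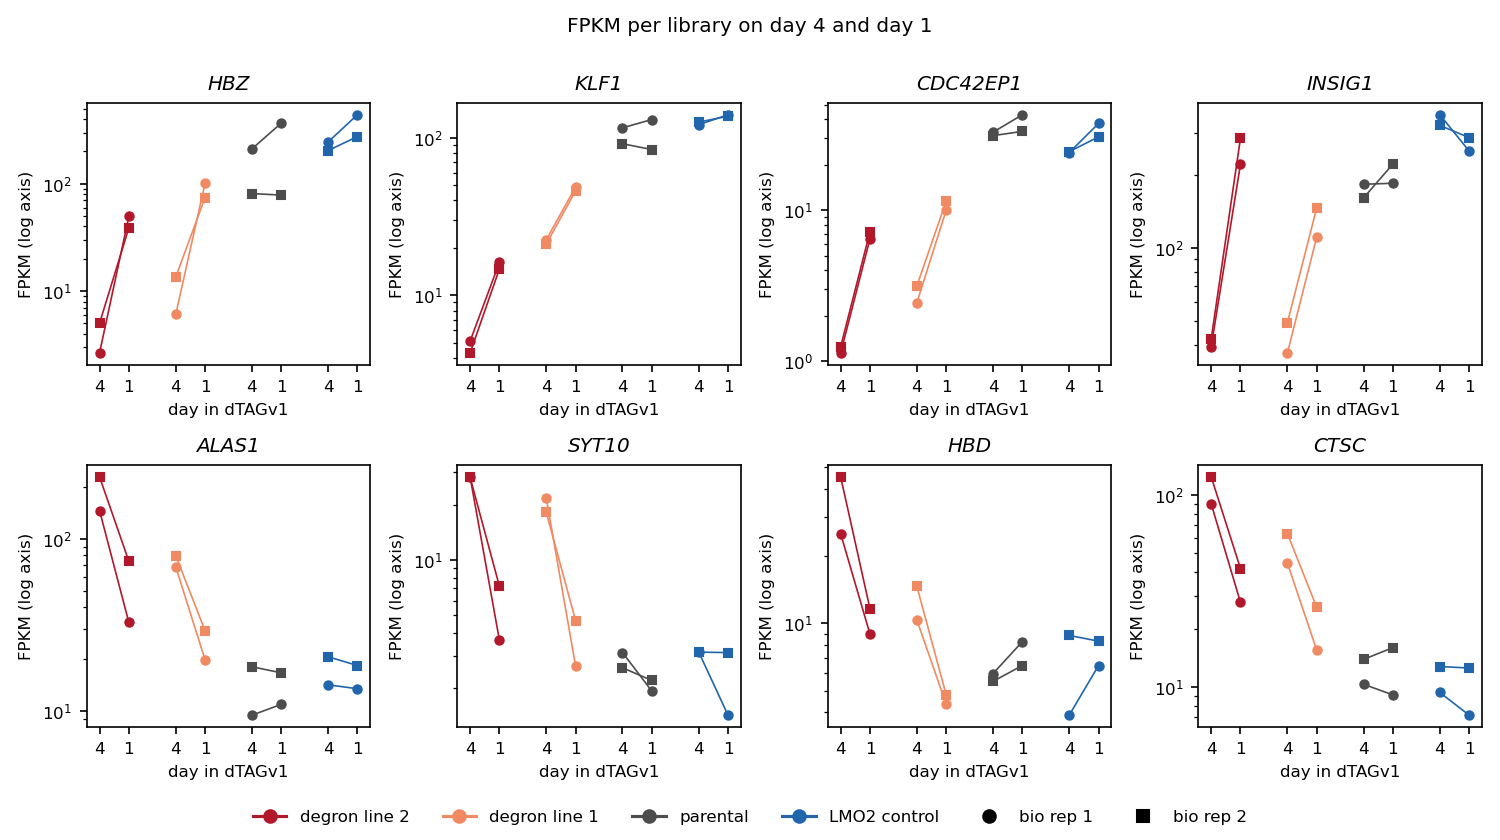
FPKM (vertical axis, log scale, its range differing between panels) of 8 genes in each of the 16 libraries, with days 4 and 1 in dTAGv1 on the horizontal axis, 1 line per pair of libraries, circles for bio rep 1 and squares for bio rep 2. HBZ, KLF1, CDC42EP1 and INSIG1 were lower on day 4 than on day 1 in each degron pair and ALAS1, SYT10, HBD and CTSC higher, with much flatter lines in parental and LMO2 control cells.

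Globins, the oxygen-carrying chains, mostly had changes below 0, with 1 called exception. Of 10 globin list genes tested, 4 fell, 1 rose and 5 were not called. The change was above 0 in 2 of them, and the median was -1.17. HBZ, the embryonic alpha-like chain, was at 2.65 and 5.02 FPKM on day 4, against 49.6 and 38.8 on day 1, in degron line 2, and at 6.07 and 13.5 on day 4, against 101 and 74.3 on day 1, in degron line 1. Control lines had 81.0 to 245 FPKM on day 4 and 78.4 to 439 on day 1. On day 4 every degron library was below every control library, whereas on day 1 degron line 1 reached above the lowest parental library. HBZ fell by 2.68 ± 0.40 (adjusted p = 0.0105), the largest fall among named genes, with -3.19 in degron lines and -0.51 in control lines.

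HBM, a minor alpha-like chain, fell alongside it (-2.32 ± 0.55, adjusted p = 0.0372), as did HBQ1, the theta chain (-1.21 ± 0.10, adjusted p = 0.00321), and HBA1 (-1.62 ± 0.38, adjusted p = 0.0369), whose reads could have been split with the near-identical HBA2. The HBM call was lost in 7 of the 8 fits that left out a pair and with no replicate block (adjusted p = 0.118). HBD, the delta chain of adult hemoglobin, did the reverse. It was at 25.2 and 45.3 FPKM on day 4, against 8.97 and 11.6 on day 1, in degron line 2, and at 10.4 and 14.7 on day 4, against 4.35 and 4.80 on day 1, in degron line 1. Control lines held 3.88 to 8.83 FPKM on day 4 and 6.48 to 8.33 on day 1, below every degron library of day 4. HBD rose by 1.74 ± 0.19 (adjusted p = 0.00542). Its mean gap on day 1 was -0.08, with degron line 2 above every control library of that day and degron line 1 below every one. Summed over the list, globin FPKM was 59.4 to 114 in degron lines on day 4 and 182 to 306 on day 1, against 340 to 831 in control lines on day 4 and 350 to 1480 on day 1. The number that fell was 2 without any one of degron line 2 replicate 1, degron line 2 replicate 2, degron line 1 replicate 1, parental replicate 1, parental replicate 2 or LMO2 control replicate 2, and 2 with no replicate block.

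Heme synthesis split, with 3 genes higher and 3 lower of 15 and a median of -0.10. ALAS1, the first enzyme of the pathway in the form used outside red cells, was at 145 and 228 FPKM on day 4, against 32.8 and 74.0 on day 1, in degron line 2. It was at 68.7 and 79.7 on day 4, against 19.9 and 29.3 on day 1, in degron line 1. Control lines held 9.51 to 20.7 FPKM on day 4 and 10.98 to 18.4 on day 1. Degron lines were above control lines on both days, with day 4 above day 1 in every pair. ALAS1 rose by 1.68 ± 0.15 (adjusted p = 0.00321) and kept its call in every alternative run. ALAS2, the red cell form of the same enzyme, had a change of -0.67 that was not called. ALAD, the second enzyme, and TMEM14C, a mitochondrial porphyrin carrier, rose by 0.48 and 0.54 (adjusted p = 0.0118 for TMEM14C). UROD and CPOX, enzymes of later steps, fell by 0.48 and 0.74 (adjusted p = 0.0139 for UROD). With no replicate block, 1 gene of the list was called higher and 0 lower. The number lower was 0 without parental replicate 1 or parental replicate 2 and 1 without degron line 2 replicate 2, degron line 1 replicate 1 or either LMO2 control replicate, and 1 was higher without parental replicate 1.

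The red cell membrane and blood group list as a whole did not widen its gap. Of 21 genes tested, 3 fell and 1 rose, the median change was 0.02, and the median gap to the control lines was -0.81 on day 4 and -0.90 on day 1. RHD (-1.12 ± 0.08, adjusted p = 0.00283) and RHCE (-1.06 ± 0.14, adjusted p = 0.00826), the Rh blood group genes, fell, and reads could have been split between these close copies. GYPC, a membrane glycoprotein, fell by 0.77 ± 0.13 (adjusted p = 0.0150), a call lost without parental replicate 1 or parental replicate 2. EPOR, the erythropoietin receptor, rose by 0.72, but 0 of the list rose with either control line alone, with either degron line alone, with no filter on low values, or without any 1 degron pair or LMO2 control replicate 2. With no replicate block 0 of the 3 were called lower (adjusted p = 0.203 for RHD, 0.354 for RHCE and 0.262 for GYPC). Among genes of iron and heme handling, BLVRB, a biliverdin reductase, was the only one of 15 called (-0.999 ± 0.19, adjusted p = 0.0198), against 13.5% of all genes. The call was lost in 4 of the 8 fits and in the fit with no replicate block (adjusted p = 0.222).

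GATA letters stood in the 250-base promoters of 12 of 15 red cell membrane genes matched in RefSeq (80.0%), against 34.1% of the 9048 tested genes with a promoter there. Among genes called lower they stood in 36.8%, and among genes called higher in 31.6%. The share was 3 of 11 for erythroid transcription factors (27.3%), 2 of 13 for iron and heme handling (15.4%), 7 of 12 for heme synthesis (58.3%), 11 of 18 for cytosolic ribosomal proteins (61.1%) and 8 of 12 for replication-dependent histones (66.7%).

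Of 24 mitosis genes tested, 19 fell and 0 rose, with a median of -0.97. The median gap to the control lines was -1.20 on day 4, against -0.16 on day 1. CCNB1, the cyclin that drives entry into mitosis, was at 38.2 and 40.9 FPKM on day 4, against 98.4 and 112 on day 1, in degron line 2. It was at 56.2 and 75.7 on day 4, against 113 and 121 on day 1, in degron line 1, and control lines held 108 to 134 on day 4 and 100 to 133 on day 1. Degron and control libraries overlapped on day 1 and separated on day 4. CCNB1 fell by 1.15 ± 0.09 (adjusted p = 0.00321), CENPA, the centromeric histone, by 1.14 ± 0.10 (adjusted p = 0.00353), and AURKA, a spindle kinase, by 0.97 ± 0.08 (adjusted p = 0.00321). The count that fell was 10 without parental replicate 1 and 10 without parental replicate 2, 8 with no filter on low values and 5 with degron line 1 alone, and the median stayed between -1.21 and -0.76 in the 21 alternatives.

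Of 25 genes of DNA replication and S phase, 18 fell and 0 rose, with a median of -0.73 and a median gap of -1.20 on day 4, against -0.50 on day 1. TK1, a thymidine kinase that makes DNA precursors, fell by 1.04 ± 0.13 (adjusted p = 0.00622), MCM7, a subunit of the replicative helicase, by 1.02 ± 0.14 (adjusted p = 0.00786), and GINS2, part of the same machinery, by 0.84 ± 0.12 (adjusted p = 0.00973). MCM7 was at 36.7 to 82.8 FPKM in degron lines on day 4 and 86.8 to 154 on day 1, against 170 to 199 in control lines on day 4 and 169 to 208 on day 1, with no overlap between degron and control libraries on either day. The count that fell was 4 without parental replicate 1, 5 without parental replicate 2, 11 without degron line 1 replicate 2, 10 with the LMO2 control line as the only control, 2 with no filter on low values and 2 with degron line 1 alone. The median stayed between -0.85 and -0.59.

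Replication-dependent histone genes, whose mRNA is mostly made in S phase and mostly lacks a polyA tail, were measured here in polyA RNA. Of 13 tested, 7 fell and 0 rose, with a median of -0.90 and a median gap of -0.92 on day 4, against 0.08 on day 1. H1-2 fell by 1.61 ± 0.19 (adjusted p = 0.00589), H2BC12 by 1.11 ± 0.09 (adjusted p = 0.00321) and H2AC8 by 0.99 ± 0.09 (adjusted p = 0.00361), and reads of such near-identical genes could have been split. With no replicate block 3 fell (adjusted p = 0.121 for H2BC12 and 0.275 for H2AC8), 4 fell without parental replicate 1 and 11 without LMO2 control replicate 2.

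TTTGAA stood in 11 of 19 mitosis promoters matched (57.9%), against 8.12% of all tested, and CCAAT in 84.2% against 35.9%. CCAAT was not particular to mitosis, with 88.2% for ER chaperones, 77.8% for cholesterol synthesis and 22.2% for cytosolic ribosomal proteins. The E2F-type letters stood in 9 of 21 replication promoters (42.9%), against 9.29% of all tested. Among all genes called lower, TTTGAA stood in 12.5% and the E2F-type letters in 13.8%, and among those called higher in 6.90% and 6.17%.

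Genes of growth arrest varied. Of 18 in this list, 4 rose, 2 fell and the median was 0.06. CDKN1A, the inhibitor p21, was at 12.7 and 27.9 FPKM on day 4, against 5.55 and 9.64 on day 1, in degron line 2, and at 15.8 and 19.97 on day 4, against 10.2 and 10.98 on day 1, in degron line 1. Control lines held 1.499 to 4.22 FPKM on day 4 and 1.55 to 6.51 on day 1, so degron line 2 on day 1 overlapped the highest parental library. CDKN1A rose by 1.10 ± 0.17 (adjusted p = 0.0121, or 0.116 with no replicate block). SESN3, a sestrin, rose by 1.11 ± 0.20 (adjusted p = 0.0168), and CCND1, a G1 cyclin, fell by 0.82 ± 0.14 (adjusted p = 0.0162), with adjusted p of 0.175 and 0.312 with no replicate block. SESN3 was not called without parental replicate 1 or parental replicate 2, nor CCND1 without these or degron line 2 replicate 1. The number higher in the list was 1 with no replicate block, 1 without parental replicate 1, 1 without parental replicate 2, 2 without degron line 2 replicate 1, 2 without degron line 2 replicate 2 and 2 without LMO2 control replicate 2.

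In the BCL2 family, which sets the threshold of cell death, PMAIP1 (0.82 ± 0.17, adjusted p = 0.0239) and BCL2L11 (0.80 ± 0.20, adjusted p = 0.0426), which promote death, rose with BCL2A1, which opposes it (0.92). BOK fell by 0.62 ± 0.13 (adjusted p = 0.0289), and 9 of 13 members were not called. The PMAIP1, BCL2L11 and BOK calls were each lost in 7 of the 8 fits that left out a pair, and the list gave 3 rises without degron line 2 replicate 1 and 0 without any other pair.

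Of 27 cytosolic ribosomal proteins tested, 22 fell and 0 rose, with a median of -0.52 and a median gap of -0.85 on day 4, against -0.25 on day 1. RPS19 was at 92.3 to 144 FPKM in degron lines on day 4 and 224 to 281 on day 1, against 230 to 295 in control lines on day 4 and 245 to 366 on day 1. The degron libraries of day 4 were below all others, while those of day 1 overlapped the control libraries. RPS19 fell by 0.89 ± 0.09 (adjusted p = 0.00385), RPL5 by 0.69 ± 0.07 (adjusted p = 0.00407) and RPS6 by 0.67 ± 0.07 (adjusted p = 0.00426), and reads of these genes could have been shared with their many pseudogenes. With no replicate block 7 of the 27 fell, and 10 fell without parental replicate 1 and 9 without parental replicate 2.

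MYC, which drives transcription of growth genes, already stood far below the control lines on day 1. It was at 4.86 to 7.85 FPKM in degron lines on day 4 and 8.08 to 16.3 on day 1, against 58.3 to 71.0 in control lines on day 4 and 48.5 to 72.6 on day 1, with no overlap. Its further fall was 0.83 ± 0.18 (adjusted p = 0.0296), lost in 6 of the 8 fits that left out a pair and with no replicate block (adjusted p = 0.0852). FBL, a methyltransferase of ribosomal RNA, fell by 0.89 ± 0.07 (adjusted p = 0.00283) and NOB1, which cuts the precursor of small-subunit RNA, by 0.61 ± 0.10 (adjusted p = 0.0129), a call lost without parental replicate 1. Of 23 genes of the MYC network and ribosome biogenesis, 4 fell and 1 rose, with a median of -0.25 and gaps of -1.10 on day 4 and -0.84 on day 1. The member that rose was MXD4, a partner of MAX that opposes MYC (0.93), but 0 of the list rose with no replicate block or without degron line 2 replicate 2, degron line 1 replicate 2, parental replicate 1, parental replicate 2 or LMO2 control replicate 1. The number that fell was 1 without parental replicate 1 and 2 without degron line 2 replicate 1, degron line 2 replicate 2, parental replicate 2 or LMO2 control replicate 1, and 2 with no replicate block.

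**Figure D3:**
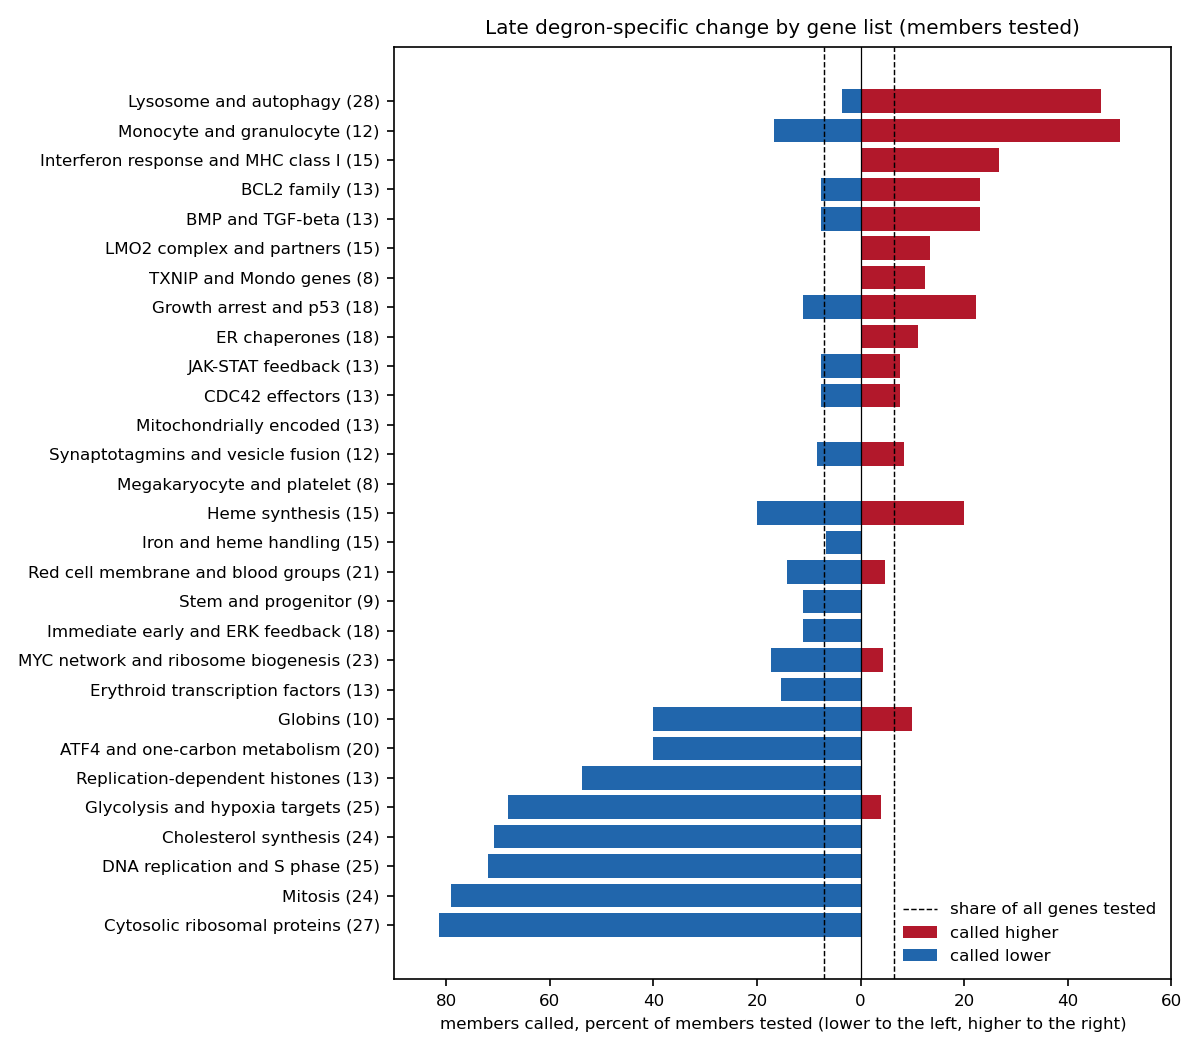
Share of tested members of each gene list called lower (left, blue) and higher (right, red) in the late degron-specific change, in percent, with the number tested in brackets, for lists with at least 5 members tested. Dashed lines mark the share of all genes tested, 7.02% lower and 6.46% higher. The lists were chosen with earlier results of these data known. Ribosomal proteins, mitosis and replication reach furthest left, and lysosome and monocyte genes furthest right.

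Of 24 cholesterol synthesis genes tested, 17 fell and 0 rose, with a median of -0.68 and a median gap of -0.91 on day 4, against -0.35 on day 1. INSIG1, which holds the sterol regulator SREBP in the endoplasmic reticulum and is itself an SREBP target, was at 39.2 and 42.2 FPKM on day 4, against 223 and 285 on day 1, in degron line 2. It was at 36.9 and 49.3 on day 4, against 111 and 147 on day 1, in degron line 1, and control lines held 161 to 356 on day 4 and 185 to 286 on day 1. Degron line 2 was within the control range on day 1, and both degron lines were below it on day 4. INSIG1 fell by 2.13 ± 0.13 (adjusted p = 0.00283).

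Among the enzymes, FDPS fell by 1.19 ± 0.09 (adjusted p = 0.00307) and MVD by 1.21 ± 0.13 (adjusted p = 0.00542), both steps between mevalonate and squalene. The regulators SREBF1 and SREBF2 had changes of -0.19 and -0.32 that were not called. The number that fell was 9 without parental replicate 1, 11 without degron line 2 replicate 2, 11 without degron line 1 replicate 1, 11 with the LMO2 control line as the only control, 7 with no filter on low values and 5 with degron line 1 alone.

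Of 25 glycolysis and hypoxia target genes tested, 17 fell and 1 rose, with a median of -0.72 and a median gap of -0.87 on day 4, against 0.04 on day 1. ENO1, enolase, was at 229 to 296 FPKM in degron lines on day 4 and 506 to 621 on day 1, against 477 to 637 in control lines on day 4 and 524 to 699 on day 1. The 4 degron libraries of day 4 were apart from the other 12. ENO1 fell by 0.98 ± 0.09 (adjusted p = 0.00381), PGK1, phosphoglycerate kinase, by 0.76 ± 0.09 (adjusted p = 0.00542), ALDOC, an aldolase, by 0.82 ± 0.10 (adjusted p = 0.00555) and LDHA, lactate dehydrogenase, by 1.37. PFKM, the muscle phosphofructokinase, was the member that rose (0.63), while PFKL and PFKP, its liver and platelet forms, fell by 0.62 and 1.02. With no replicate block 5 fell (adjusted p = 0.220 for PGK1 and 0.563 for ALDOC), and 8 fell without parental replicate 1 and 11 without parental replicate 2.

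TXNIP, an arrestin-family protein that restrains glucose uptake, is called higher without a rise in the degron lines themselves. It was at 1072 and 444 FPKM on day 4, against 928 and 500 on day 1, in degron line 2, and at 624 and 279 on day 4, against 526 and 297 on day 1, in degron line 1. Parental cells had 114 and 49.7 on day 4, against 197 and 87.6 on day 1, and the LMO2 control line had 332 and 118 on day 4, against 447 and 242 on day 1. Bio rep 1 was above bio rep 2 in every line and on both days. The late degron-specific change of 0.81 ± 0.16 (adjusted p = 0.0239) was made up of 0.05 in degron lines and -0.76 in control lines, and the adjusted p was 0.584 with no replicate block. The call was lost in 4 of the 8 fits that left out a pair, and the other 7 of 8 genes in its list were not called.

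In amino acid and one-carbon metabolism, 8 of 20 genes fell and 0 rose, with a median of -0.51. MTHFD1L, a mitochondrial enzyme of the folate cycle, fell by 1.09 ± 0.09 (adjusted p = 0.00307), SHMT2, which makes glycine from serine, by 0.93 ± 0.11 (adjusted p = 0.00542), and SLC7A5, a transporter of large amino acids, by 1.01 ± 0.17 (adjusted p = 0.0141). ATF4, the transcription factor of this list, had a change of -0.62 that was not called. The SLC7A5 call was lost without degron line 2 replicate 2 and with no replicate block (adjusted p = 0.0577). The number that fell was 4 with no replicate block, 3 without degron line 1 replicate 1, 4 without degron line 2 replicate 2, 4 without parental replicate 1 and 5 without any one of degron line 2 replicate 1, parental replicate 2, LMO2 control replicate 1 or LMO2 control replicate 2. ER chaperones, proteins that fold secretory cargo, gave 2 rises of 18, DNAJB9 (0.98 ± 0.13, adjusted p = 0.00779) and PDIA4 (0.30 ± 0.07, adjusted p = 0.0299), and PDIA4 was not called in any of the 8 fits.

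**Figure D4:**
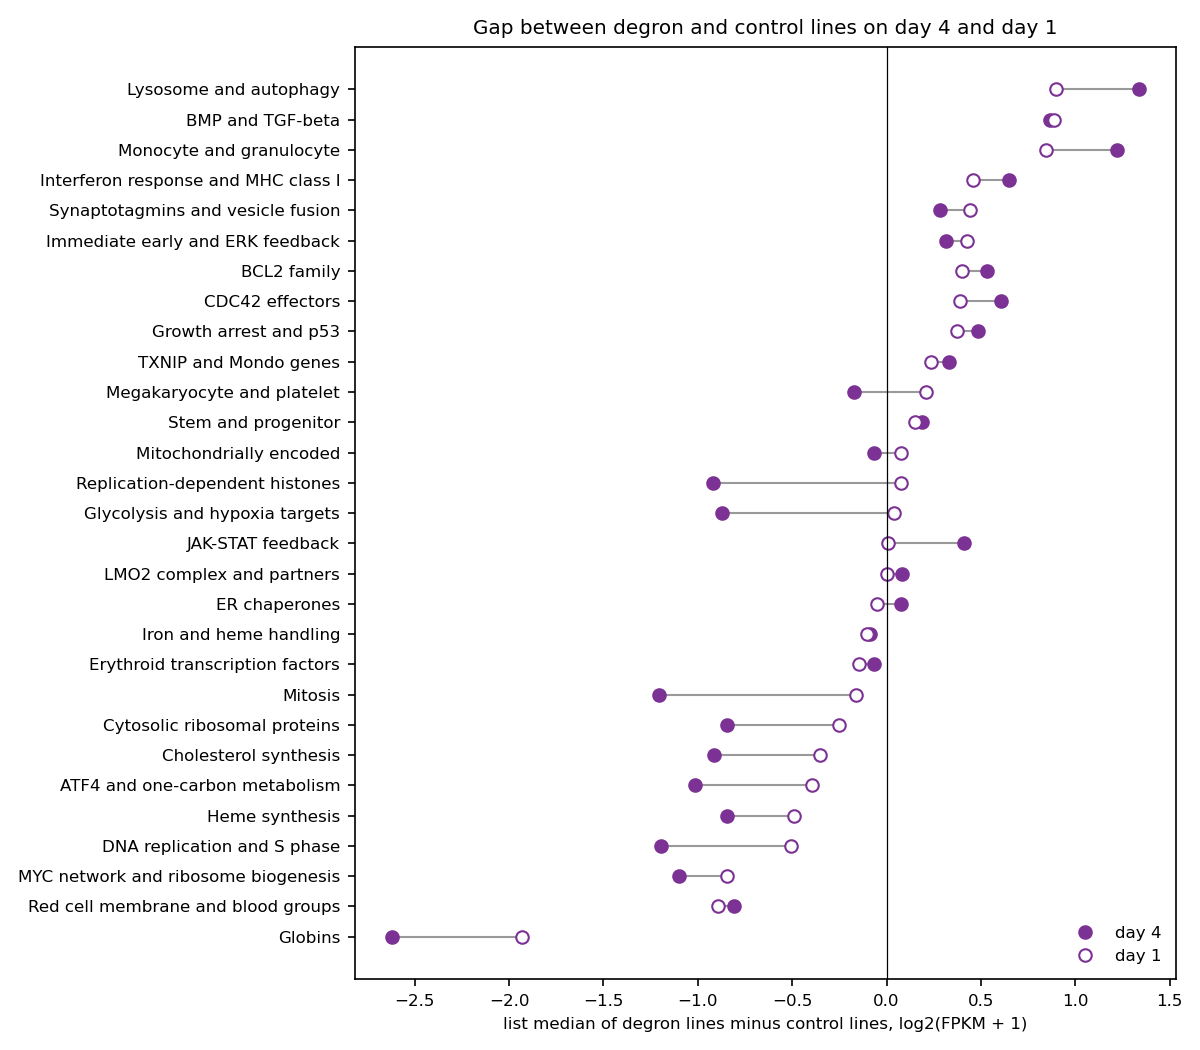
Median gap between degron and control lines in each gene list, as degron minus control on the log2(FPKM + 1) scale (horizontal axis), on day 4 (filled) and day 1 (open), for lists with at least 5 members tested. Mitosis went to -1.20 on day 4, against -0.16 on day 1, while red cell membrane genes stood at -0.81 on day 4 and -0.90 on day 1.

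Of 28 lysosome and autophagy genes tested, 13 rose and 1 fell, with a median of 0.56 and a median gap of 1.34 on day 4, against 0.90 on day 1. CTSC, the protease cathepsin C, was at 90.2 and 125 FPKM on day 4, against 27.7 and 41.5 on day 1, in degron line 2. It was at 44.3 and 63.2 on day 4, against 15.6 and 26.1 on day 1, in degron line 1, and control lines held 9.39 to 13.97 on day 4 and 7.15 to 16.1 on day 1. The degron lines were above the control lines on day 4, and 1 library of degron line 1 reached into the control range on day 1. CTSC rose by 1.39 ± 0.12 (adjusted p = 0.00337, or 0.0524 with no replicate block).

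LAMP1, a protein of the lysosomal membrane, rose by 0.68 ± 0.08 (adjusted p = 0.00622, or 0.175 with no replicate block). CTSS, SCPEP1 and CTSA, further proteases, rose by 1.30, 1.15 and 0.96, and CTSH, another, fell by 0.64. PLD3, a lysosomal nuclease outside the list, was at 237 to 496 FPKM in degron lines on day 4 and 100 to 175 on day 1, against 26.7 to 39.0 in control lines on day 4 and 27.9 to 47.0 on day 1, and rose by 1.41 ± 0.20 (adjusted p = 0.00931). Genes of autophagy in the list mostly were not called: ULK1, WIPI1 and GABARAPL2 had changes of -0.04, -0.04 and 0.17, while SQSTM1, a cargo receptor, rose by 0.80. TFEB, a regulator of lysosome genes, had a change of 0.06. The number that rose was 5 with no replicate block, 6 without parental replicate 2, 7 without parental replicate 1, 7 without degron line 2 replicate 2 and 8 without degron line 1 replicate 2. The CLEAR-type letters stood in 5 of 20 lysosome promoters matched (25.0%), against 5.46% of all tested, 8.22% of genes called higher and 4.60% of genes called lower.

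Of 12 monocyte and granulocyte genes tested, of 22 listed, 6 rose and 2 fell, with a median of 0.42 and a median gap of 1.22 on day 4, against 0.85 on day 1. With no filter on low values, which brings in all 22, 1 rose and 0 fell, and the median was -0.0019. ITGAX, an integrin of myeloid cells, was at 11.1 and 14.1 FPKM on day 4, against 3.97 and 4.02 on day 1, in degron line 2, and at 4.74 and 5.08 on day 4, against 1.99 and 1.94 on day 1, in degron line 1. No control library exceeded 0.181 FPKM on either day. ITGAX rose by 1.19 ± 0.12 (adjusted p = 0.00445), CEBPD, a transcription factor, by 0.84 ± 0.12 (adjusted p = 0.0102) and LYZ, lysozyme, by 0.90 ± 0.14 (adjusted p = 0.0121, or 0.214 with no replicate block), the last not called without parental replicate 2. CSF3R, ITGAM and TYROBP, surface receptors or their adaptor, rose by 0.90, 0.53 and 0.85, and FCGR2A, an Fc receptor, and PRTN3, a granule protease, fell by 0.91 and 0.85. The falls depended on the fit: 0 of the list fell with no replicate block, and 0 without degron line 2 replicate 2, without either parental replicate or without either LMO2 control replicate.

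The summed level of the 22 listed genes was 254 to 315 FPKM in degron lines on day 4 and 154 to 201 on day 1, against 80.1 to 103 in control lines on day 4 and 71.3 to 89.7 on day 1. Some genes known from monocytes, granulocytes or their precursors stayed near 0. Their highest values over the 16 libraries were 0.326 FPKM for CD14, 0.152 for CSF1R, 0.138 for MPO and 0.234 for CEBPA. The number that rose was 3 with no replicate block and 2 without parental replicate 2. SPI1, a regulator of myeloid genes, had a change of -0.01.

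Markers of other blood cells were mostly below the filter on low values. Of 8 megakaryocyte and platelet genes tested, of 18 listed, 0 were called in limma, and SRGN, a granule proteoglycan, had a change of -0.01 ± 0.13. Of 4 mast cell and basophil genes tested, of 12 listed, SIGLEC6 rose (1.21 ± 0.20, adjusted p = 0.0135), a call lost without parental replicate 1 or parental replicate 2. Of 4 lymphoid genes tested, of 16 listed, CD3D, a subunit of the T cell receptor complex, fell by 1.81 ± 0.29 (adjusted p = 0.0123, or 0.0506 with no replicate block). CD3D was at 45.2 and 20.95 FPKM on day 4, against 142 and 126 on day 1, in degron line 2, and at 35.3 and 23.7 on day 4, against 76.8 and 84.8 on day 1, in degron line 1. Control lines held 7.79 to 29.5 FPKM on day 4 and 7.72 to 41.2 on day 1, so the degron lines were above them on day 1 and overlapped them on day 4. Of 9 stem and progenitor genes tested, of 16 listed, MYB was the only one called.

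Of 15 interferon response and MHC class I genes tested, of 25 listed, 4 rose and 0 fell, with a median of 0.32. With no filter on low values, which brings in all 25, 0 rose and the median was 0.125. IFIT3, an antiviral protein, was at 1.96 and 1.63 FPKM on day 4, against 0.407 and 0.437 on day 1, in degron line 2, and at 6.50 and 6.02 on day 4, against 2.91 and 1.94 on day 1, in degron line 1. Control lines held 0.480 to 1.20 FPKM on day 4 and 0.378 to 0.661 on day 1, a range that degron line 2 was within on day 1. IFIT3 rose by 0.92 ± 0.15 (adjusted p = 0.0133), IFI35, induced by interferon, by 0.60 ± 0.12 (adjusted p = 0.0239), and STAT2, which carries the interferon signal to the nucleus, by 0.44 ± 0.09 (adjusted p = 0.0280). IFIT3 was not called without parental replicate 1, IFI35 was lost in 6 and STAT2 in 7 of the 8 fits that left out a pair, and 1 of the list rose with no replicate block. The number that rose was 4 without LMO2 control replicate 1, 2 without degron line 2 replicate 1, 0 without parental replicate 1 and 1 without any other pair.

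SYT10, a synaptotagmin of vesicle release known from neurons, made the largest rise among named genes. It was at 28.3 and 28.1 FPKM on day 4, against 3.66 and 7.19 on day 1, in degron line 2, and at 21.6 and 18.1 on day 4, against 2.64 and 4.67 on day 1, in degron line 1. Control lines held 2.58 to 3.15 FPKM on day 4 and 1.43 to 3.13 on day 1. On day 4 the degron lines were well above the control lines, and on day 1 degron line 1 overlapped them. SYT10 rose by 1.86 ± 0.29 (adjusted p = 0.0123), with an adjusted p of 0.0544 without parental replicate 2. Of 12 synaptotagmin and vesicle fusion genes tested, VAMP8, a vesicle SNARE, was the other called, against 13.5% of all genes. VAMP8 fell by 0.42 ± 0.08 (adjusted p = 0.0184, or 0.542 with no replicate block), a call that 6 of the 8 fits lost.

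CDC42EP1, an effector of the GTPase CDC42 that shapes the actin skeleton, was at 1.13 and 1.25 FPKM on day 4, against 6.47 and 7.20 on day 1, in degron line 2. It was at 2.44 and 3.15 on day 4, against 10.006 and 11.5 on day 1, in degron line 1. Control lines held 24.1 to 32.9 FPKM on day 4 and 30.7 to 43.0 on day 1. Every degron library was below every control library. CDC42EP1 fell by 1.39 ± 0.11 (adjusted p = 0.00307), on top of a gap of -1.94 on day 1. CDC42SE2, another CDC42 effector, rose by 0.52 ± 0.08 (adjusted p = 0.00973, not called without parental replicate 1). The other 11 of 13 tested, CDC42 among them (0.10), were not called, so the share called was near the 13.5% of all genes.

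**Figure D5:**
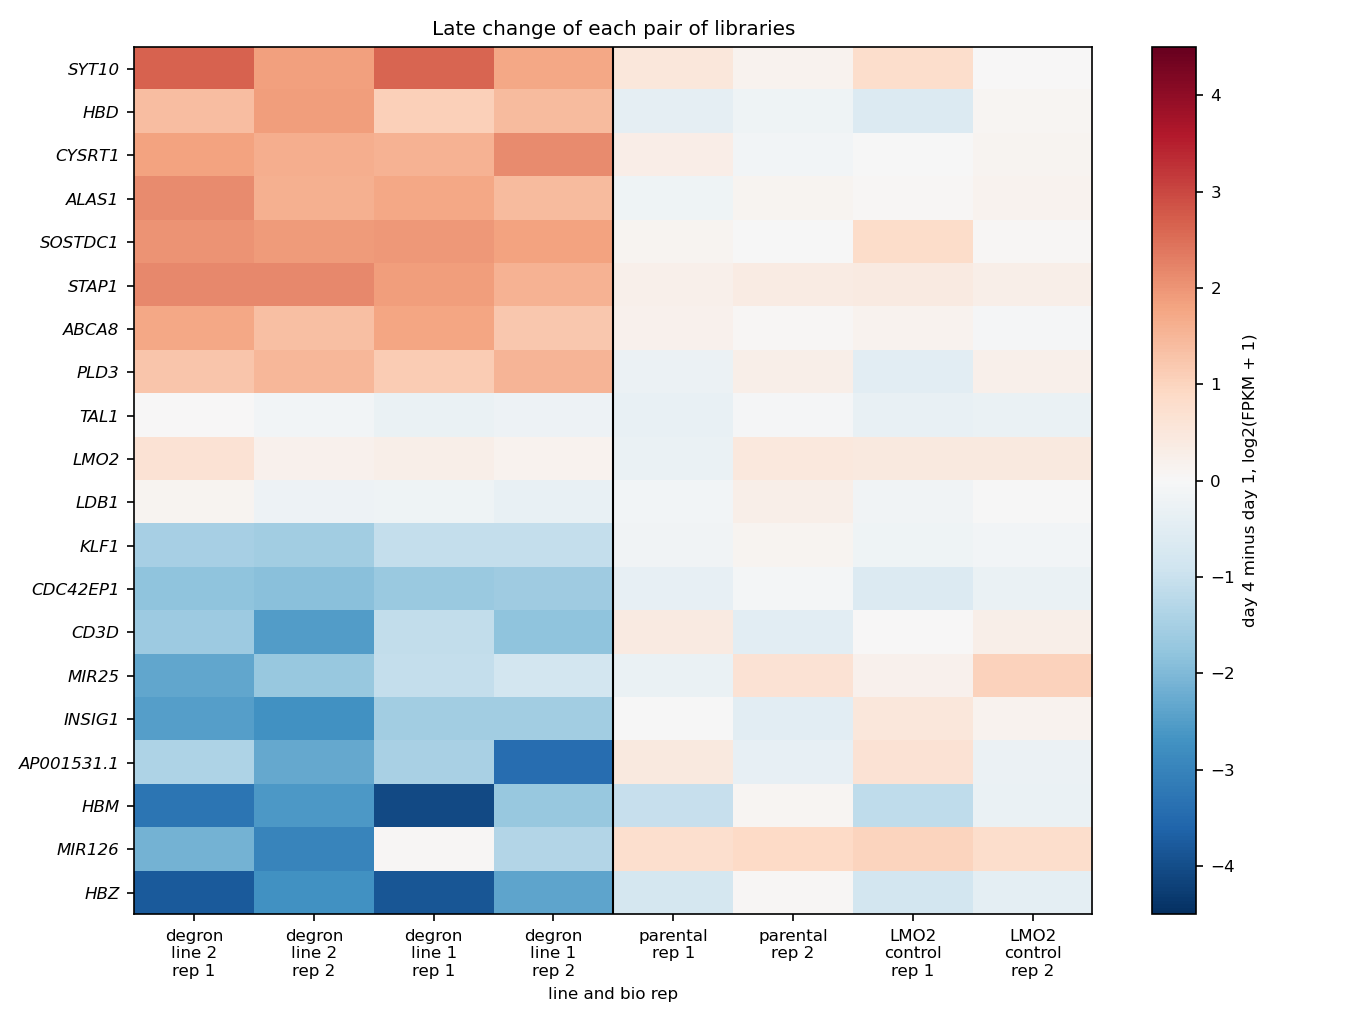
Change of each pair of libraries, day 4 minus day 1 on the log2(FPKM + 1) scale (colour), for 20 genes (vertical axis) in the 4 degron pairs (left of the black line) and 4 control pairs (right). The genes named as largest rises are red and those named as largest falls blue in the degron pairs, except MIR126 in degron line 1 replicate 1, and LMO2, LDB1 and TAL1 are pale throughout.

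Signalling genes changed singly. SOSTDC1, a secreted antagonist of BMP and Wnt signals, was at 75.2 to 235 FPKM in degron lines on day 4 and 18.7 to 61.7 on day 1, against 3.18 to 5.25 in control lines on day 4 and 2.26 to 5.01 on day 1. The degron lines were above the control lines on both days. SOSTDC1 rose by 1.68 ± 0.17 (adjusted p = 0.00441), TGFBR1, a TGF-beta receptor, by 0.86 ± 0.10 (adjusted p = 0.00542, or 0.110 with no replicate block) and GDF11, a ligand of the family, by 0.49 ± 0.12 (adjusted p = 0.0389), the last lost in 7 of the 8 fits. In that list of 13 tested, 3 rose and 1 fell, SMAD3, a signal transducer (-0.43), and with no replicate block 1 rose and 0 fell. In that list 1 fell without degron line 1 replicate 1 or LMO2 control replicate 1, and 0 fell without any other pair. SOCS2, a feedback inhibitor of JAK and STAT signalling, rose by 0.96 ± 0.15 (adjusted p = 0.0109), and STAT5A, a transducer of that pathway, fell by 0.48 ± 0.10 (adjusted p = 0.0272), lost in 7 of the 8 fits, and the other 11 of 13 genes of that list were not called. ETV4, an ETS factor downstream of ERK, fell by 1.71 ± 0.11 (adjusted p = 0.00283) and FOSL1, an AP-1 subunit, by 0.83 ± 0.17 (adjusted p = 0.0255), lost in 6 of the 8 fits. The other 16 of 18 immediate early and ERK feedback genes tested were not called. In both this list and that of SOCS2 the share called was near the 13.5% of all genes.

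The remaining genes with the largest changes belong to none of these lists. STAP1, a signalling adaptor of blood cells, rose by 1.64 ± 0.11 (adjusted p = 0.00283), CYSRT1 by 1.71 ± 0.17 (adjusted p = 0.00432) and ABCA8, a transporter of the ABC family, by 1.43 ± 0.17 (adjusted p = 0.00555), all 3 with no overlap of degron and control pairs. STAP1 was at 14.8 to 28.4 FPKM in degron lines on day 4 and 3.13 to 5.64 on day 1, against 0.267 to 1.56 in control lines on day 4 and 0.0799 to 1.14 on day 1.

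The entry for MIR126, a microRNA gene inside EGFL7, fell by 2.45 ± 0.32 (adjusted p = 0.00779), and its reads cannot be told from those of EGFL7, whose own change of -1.63 ± 0.43 was not called (adjusted p = 0.0507). MIR126 was at 0.574 and 0 FPKM on day 4, against 5.81 and 6.79 on day 1, in degron line 2, and at 8.91 and 5.06 on day 4, against 8.49 and 14.003 on day 1, in degron line 1. Means were 24.1 FPKM on day 4, against 12.8 on day 1, in parental cells, and 46.4 against 24.5 in the LMO2 control line. The change was thus made up of -1.58 in degron lines and 0.86 in control lines, and degron line 1 replicate 1 did not fall (0.06). The entry for MIR25, inside MCM7, likewise fell (-1.87 ± 0.29, adjusted p = 0.0118), with -1.48 in degron lines and 0.39 in control lines. AP001531.1, a gene with no symbol in the table, fell by 2.26 ± 0.48 (adjusted p = 0.0272), a call that 6 of the 8 fits lost. Genes encoded in mitochondria gave 0 calls of 13 tested in limma, with a median of -0.04.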

How the data were processed

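The 24 K562 libraries of the LMO2 set were deposited as 1 table, in which the authors give FPKM for 60642 genes. Per the submitters' processing notes, FastQC, STAR, featureCounts and the build hg19 were used; their versions, the annotation and the strand setting are not given in the sources used here. For this work, the 16 libraries of days 4 and 1 were analysed as log2(FPKM + 1), which understates changes of low genes. A gene was tested with at least 1 FPKM in at least 2 of the 16 libraries.

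The fit was limma 3.58.1 in R 4.3.3, with 1 block per line and bio rep number (8 pairs), a day effect per line, empirical Bayes with trend and robust settings, and 4 residual degrees of freedom. It was tested on simulated data. The other contrasts of the design, degron lines, control lines and degron line 2 minus degron line 1, came from the same fit. The pairing rests on the bio rep numbers in the labels. Deviations of same-numbered libraries from their line and day means correlated between days at 0.188 in degron line 2, 0.258 in degron line 1, 0.403 in the LMO2 control line and 0.630 in the parental line. Over all pairs of line and day groups, different lines included, the correlations ran from 0.123 to 0.630. The degron lines were in the lower part of that range, so their values do not show a pairing particular to the line.

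Depth was recovered from the steps of low FPKM values and scaled with the exon lengths of 14639 genes. The steps were whole reads in every library of the set, day 0 included, within 0.01 reads, for 23025 of 25862 low genes. This share of whole reads did not cover nearly all genes, so no count test was run.

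The members and the 31 gene lists (589 entries, 489 tested) were chosen with earlier results of these data known. Named genes were LMO2, LDB1, TAL1, KLF1, HBZ, ALAS1, SYT10 and CDC42EP1, the 8 called genes that rose most and the 8 that fell most with a mean of at least 5 FPKM and all 4 degron pairs on 1 side of the control mean, and up to 3 members per list. List members named with a change and no adjusted p were chosen after their values were seen. A few genes chosen by this rule are not reported here. Promoters are RefSeq's (GRCh38.p14) and were searched on both strands, with no coordinates taken across builds. The alternatives were other pairings, line means as replicates, no trend and robust settings, pseudocounts, filters, a rescaling, single lines, and leaving out each pair. Of the values given here, only those from the recovery of depth rest on day 0 libraries, and the other cell sets of the series were not used.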

Additional observations from a re-analysis of the deposited data

Results flagged for a closer look

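Among 166 sets of 4 pairs (the degron or the control pairs of each named gene), 5 held a pair whose distance from its nearest neighbour, as a share of the whole range, was above Dixon's critical value at the 95% level; chance gives about 1 in 20. All values are day 4 minus day 1 on the log2(FPKM + 1) scale.

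For LMO2, the parental replicate 1 pair was at -0.29 and the other 3 control pairs at 0.43 to 0.49. For SOSTDC1, the LMO2 control replicate 1 pair was at 0.82 and the other control pairs at -0.01 to 0.11. For RHCE, the parental replicate 2 pair was at -0.14 and the other control pairs at -0.61 to -0.53. For MCM7, the degron line 2 replicate 2 pair was at -1.55 and the other degron pairs at -0.99 to -0.88. For GDF11, the degron line 2 replicate 2 pair was at 0.86 and the other degron pairs at 0.50 to 0.56. The difference between degron line 2 and degron line 1 passed the test for 0 of all genes, these 5 included, so it tells nothing about these pairs.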

How the results depend on the processing

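The 2022 calls of the late degron-specific change became 771 with no replicate block and 411 with no filter on low values. With the parental line as the only control they became 995, and with the LMO2 control line as the only control 753. Degron line 1 alone gave 400 and degron line 2 alone 1360. The count was higher with the replicate block as 1 term (2151), a pseudocount of 5 (2204) and line means as replicates (2811). Line means measure the spread between lines, and 1731 of their calls were among the 2022. Leaving out 1 pair gave 522 to 1369. In the degron lines alone, 6200 calls became 3752 with a mean of at least 5 FPKM, a filter that leaves fewer genes tested, and 3594 to 6334 without 1 pair, the lowest without degron line 1 replicate 1 and 3782 without degron line 2 replicate 1. In the control lines 0 calls became 3 with the replicate block as 1 term and 5 with no filter. Between the degron lines 0 became 16 with no filter. Leaving out 1 pair gave 0 calls in both. The share of calls that were higher was 47.9%, with a range of 40.1% to 54.5% over the alternatives.

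LMO2, TAL1 and SRGN, none of them called, changed sign. LMO2 moved to -0.108 with the LMO2 control line only, to -0.053 with degron line 1 only and to between -0.14 and 0.25 without 1 pair. TAL1 moved to -0.018 with degron line 1 only. SRGN moved to 0.20 with the parental line only and to between -0.12 and 0.11 without 1 pair. Of the 78 called genes named by the rule, 48 kept their call in all 8 fits that left out a pair, 28 kept it in every alternative in which they were tested (ITGAX was not, with a mean of at least 5 FPKM), 32 lost it with no replicate block, and no called gene among them changed sign. The causes were not tested. Depth limits genes near 1 FPKM, and 2 libraries per line and day limit the estimate of the spread.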
